A study of Homo sapiens with 9 samples.

Results

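The zinc-finger gene clusters of chromosome 19 were examined for γH2AX in K562, a long-established cell line from a human myelogenous leukaemia. γH2AX is the histone variant H2AX phosphorylated in chromatin around DNA breaks and stalled replication forks, and the study read it out by chromatin immunoprecipitation followed by sequencing (ChIP-seq). The clusters were set by 4 fixed intervals in genome build hg19, and a called γH2AX region belonged to a cluster when its midpoint fell inside the interval. The p12 interval ran from 19.8 to 24.6 Mb, the q13.12 interval from 36.5 to 38.3 Mb, the q13.31 interval from 44.3 to 45.0 Mb and the q13.4 interval from 52.3 to 58.9 Mb. They held 1096 of the 234983 regions called in the 8 libraries, with 35 in p12, 118 in q13.12, 8 in q13.31 and 935 in q13.4. The rest of chromosome 19 held 15551 regions. The clusters made up 13.9 Mb, or 23.5% of the chromosome up to its last called position, and the rest made up 45.2 Mb.

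There were 4 groups of 2 libraries each: FANCL knock-out cells treated with PMA at 5 nM for 72 h (KO PMA), FANCL knock-out cells with mock treatment (KO mock), wild-type cells treated with PMA in the same way (WT PMA) and wild-type cells with mock treatment (WT mock). FANCL is the ubiquitin ligase subunit of the Fanconi anaemia core complex, which acts in the repair of DNA crosslinks, and PMA is a phorbol ester under which K562 cells differentiate towards megakaryocytes. One input library, from WT mock cells, served as the background for every region list. The labels do not say how many clones the knock-out cells came from or that the libraries of a group came from separate cultures, so the p-values below reflect the spread among these libraries alone, and that spread may be technical. The lists hold no measurement of FANCL, and the genotype rests on the labels.

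As background, chromosome 19 carries the largest collection of KRAB zinc-finger genes in the human genome, arranged in tandem clusters that grew by repeated gene duplication. Their proteins bind DNA through arrays of zinc fingers, many of them within retrotransposons, and recruit the corepressor TRIM28 (KAP1) through the KRAB domain. The clusters themselves are known for H3K9me3, a mark of repressed chromatin, over the zinc-finger exons of many of these genes. The p12 cluster includes ZNF91, which represses SVA retrotransposons, and its neighbours ZNF43 and ZNF208. The q13.4 interval also spans genes of other kinds, among them the LILR and KIR receptors of immune cells, NLRP genes and a primate miRNA cluster, most of them between 54 and 56 Mb. In the RefSeq gene table (GRCh38.p14), 250 of 517 protein-coding genes named ZNF with a number lay on chromosome 19 (48.4%). No annotation of build hg19 was used here, so no called region was assigned to a gene.

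Depth ran from 15.6 to 27.2 M (mega) tags per library. For the input it was estimated at 18.6 M tags, from how the lists scale tags to the input. The tag number a window needed ran from 5.89 per 10 M tags in the deepest library, WT PMA replicate 1, to 7.69 in the shallowest. The share of tags inside called regions over the whole genome also moved with the groups. It was 7.96% and 6.69% in KO PMA, 3.42% and 3.67% in KO mock, 4.69% and 4.24% in WT PMA and 1.55% and 1.39% in WT mock, and its part in the results was not tested. Copy number, GC content and mappability of the intervals were not tested either. The lists hold no tags outside called regions, and no genome sequence of build hg19 was used.

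The clusters were sparsely marked in all 4 groups, and they held a smaller share of the chromosome's covered length in the KO libraries than in the WT libraries. Covered length, the total of base pairs that called regions span, was 211 and 170 kb in the clusters together in KO PMA, 142 and 129 kb in KO mock, 63.8 and 60.5 kb in WT PMA, with 20.0 and 21.1 kb in WT mock. In the rest of chromosome 19 it was 6794 and 5675 kb in KO PMA, 1713 and 1900 kb in KO mock, 328 and 452 kb in WT PMA, with 108 and 178 kb in WT mock. Both KO groups therefore lay above both WT groups in the clusters as well as in the rest, without overlap. The clusters held 3.01% and 2.91% of the covered length of chromosome 19 in KO PMA, 7.66% and 6.35% in KO mock, 16.3% and 11.8% in WT PMA and 15.6% and 10.6% in WT mock. All 8 shares were below the 23.5% of the span that the clusters take up, and the 4 KO shares were below the 4 WT shares.

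**Figure D1:**
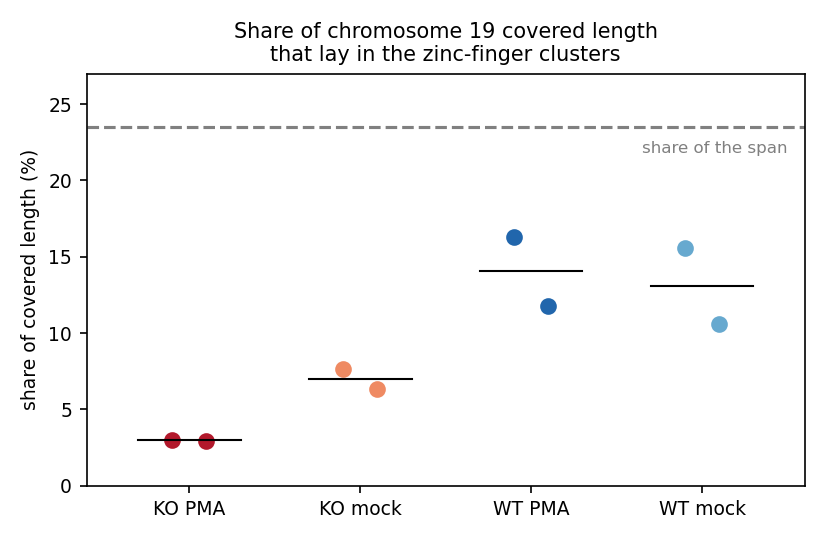
Share of the covered length of chromosome 19 that lay in the zinc-finger clusters (percent, vertical axis) in the 2 libraries of each group (points; the black line is their mean). The dashed line marks the 23.5% of the chromosome that the clusters span, and the KO PMA libraries, at 3.01% and 2.91%, lie farthest below it.

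To compare the clusters with the rest of the chromosome within a library, the covered length per Mb in a cluster was divided by that in the rest, after adding 1000 bp to each. For the clusters together this ratio was 0.101 and 0.0979 in KO PMA, 0.271 and 0.222 in KO mock, 0.640 and 0.442 in WT PMA and 0.626 and 0.402 in WT mock. Over both treatments the ratio was lower in KO than in WT by 1.72 on the log2 scale, or 3.30-fold. All 4 KO libraries lay below all 4 WT libraries, and the exact permutation test, two-sided, with genotype shuffled within treatment gave p = 0.0556. That is the smallest p its 36 labellings allow, so the design cannot reach 0.05. In each cluster the 4 KO ratios also lay below the 4 WT ratios at this same p, with differences of -4.55 in p12, -2.53 in q13.12, -3.27 in q13.31 and -1.52 in q13.4 on the log2 scale. Over all 35 ratio tests of this kind, the Benjamini-Hochberg adjusted value of these exact permutation tests was 0.324. Where a cluster is listed at 0, the ratio is set by the added 1000 bp and the level of the rest, and its size should be read with that limit. WT mock replicate 1 was listed at 0 kb in both p12 and q13.12, so the full separation of KO from WT there rests on the added 1000 bp. In q13.12 the log2 ratio of that library was -2.12, beside -2.16 and -2.18 in KO mock. The limit also holds for q13.31 in both KO PMA and both WT PMA libraries, so the order of its ratios there is set by the rest alone. In mock cells its covered length was higher in KO, at 1.14 and 2.5 kb, than in WT, at 0.5 and 0 kb. The lower KO ratios of q13.31 and their p thus reflect the level of the rest, not less coverage in the cluster.

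By treatment, the ratio for the clusters together was 2.42 lower in KO PMA than in WT PMA and 1.03 lower in KO mock than in WT mock on the log2 scale. It was 1.30 lower in KO PMA than in KO mock, whereas WT PMA and WT mock overlapped, with a difference of 0.08. With 2 libraries against 2, an exact permutation test, two-sided, cannot go below 0.33, and the first 3 of these differences gave 0.333. The difference between the PMA responses of KO and WT cells was -1.39, with an exact permutation p of 0.333 when genotype was shuffled within treatment. That shuffle also breaks up the genotype difference within each treatment, so it cannot decide whether the responses differ.

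Coverage was lower inside than outside at some borders of the intervals, but not at all. At the start of p12, the first 300 kb inside held 0 kb in both KO PMA libraries, 2.15 and 0 kb in KO mock, 0.5 kb in both WT PMA libraries, with 0 and 0.5 kb in WT mock. The 300 kb just outside held 58.9 and 41.5 kb in KO PMA, 29.7 and 32.9 kb in KO mock, 20.1 and 22.8 kb in WT PMA, with 0 and 3.47 kb in WT mock. In each of the 6 KO or WT PMA libraries the inside value was at most 2.15 kb and the outside value at least 20.1 kb.

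At the start of the short q13.31 interval, the KO PMA libraries had 0 kb inside, the KO mock libraries 1.14 and 1 kb, the WT PMA libraries 0 kb and the WT mock libraries 0.5 and 0 kb. Outside, the KO PMA libraries had 52.7 and 42.6 kb, the KO mock libraries 15.3 and 14.6 kb, the WT PMA libraries 7.10 and 11.8 kb and the WT mock libraries 0.813 and 0 kb. At its end both KO PMA libraries held 0 kb inside, and beyond it 18.4 and 17.3 kb, while WT PMA held 0 kb on both sides.

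The start of q13.12 went the other way in WT PMA, with 15.9 and 13 kb inside and 1.74 and 5.59 kb outside. There KO PMA had 11 and 7.87 kb inside and 28.2 and 27 kb outside, and KO mock replicate 2 had 15.2 kb inside and 14.7 kb outside. At the start of q13.4, KO PMA had 0 kb inside and 6.75 and 6.34 kb outside, and in the other 6 libraries no value on either side was above 3.89 kb.

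Averaged over 6 edges, covered length in KO PMA was 14 kb per 100 kb at 200 to 300 kb outside an edge, 3.91 kb in the last 100 kb outside, 1.27 kb in the first 100 kb inside and 0.0417 kb at 200 to 300 kb inside. In WT mock the same positions held 0.193, 0.0417, 0.208 and 0 kb. The 1.27 kb in KO PMA came from 1 edge, the start of q13.12, with 7.64 kb in the first 100 kb inside and 1.18 kb in the last 100 kb outside. The other 5 edges were at 0 kb in the first 100 kb inside, so the slope of the average is not that of each edge. The centromeric end of p12 was left out of this average, since nothing was called within 300 kb on either side of it. The telomeric end of q13.4 was left out too, although it was covered on both sides in every library. Its last 100 kb inside held 12.4 and 6.99 kb in KO PMA and 6.23 and 7.34 kb in WT mock, which the averages inside do not include.

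**Figure D2:**
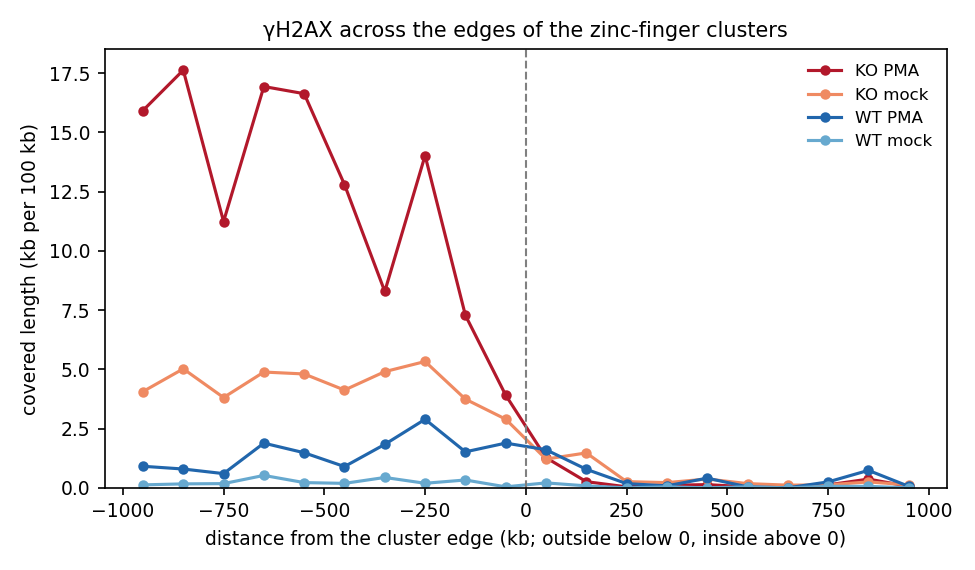
Mean covered length (kb per 100 kb, vertical axis) by distance from the edge of a cluster (kb, horizontal axis, outside below 0 and inside above 0), averaged over 6 edges and the 2 libraries of each group. In KO PMA the mean was 14 kb at 200 to 300 kb outside and 0.0417 kb at the same distance inside, and its 1.27 kb in the first 100 kb inside comes from the start of q13.12 alone. Beyond 700 kb inside, 4 edges contribute. The telomeric end of q13.4, covered on both sides, is not among the 6 edges.

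The clusters were also the emptier part of the chromosome when bins were counted. Of 139 bins of 100 kb in the clusters, 26 and 31 held any called base pair in KO PMA, 51 and 49 in KO mock, 33 and 31 in WT PMA and 20 and 22 in WT mock. These are 18.7% and 22.3% of the cluster bins in KO PMA, 36.7% and 35.3% in KO mock, 23.7% and 22.3% in WT PMA and 14.4% and 15.8% in WT mock. In the rest of the chromosome the shares were 65.7% and 63.7% in KO PMA, 68.8% and 68.4% in KO mock, 40.0% and 52.0% in WT PMA and 24.1% and 33.4% in WT mock. Within the clusters KO PMA reached fewer bins than KO mock although its covered length there was larger, and most of that length lay in a few bins of q13.4. Of the 139 bins, 62 were empty in all 8 libraries, including unbroken runs of 1.8 Mb in p12 (22 to 23.8 Mb), 0.8 Mb in q13.4 (56.9 to 57.7 Mb) and 0.7 Mb in q13.12 (37.6 to 38.3 Mb).

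**Figure D3:**
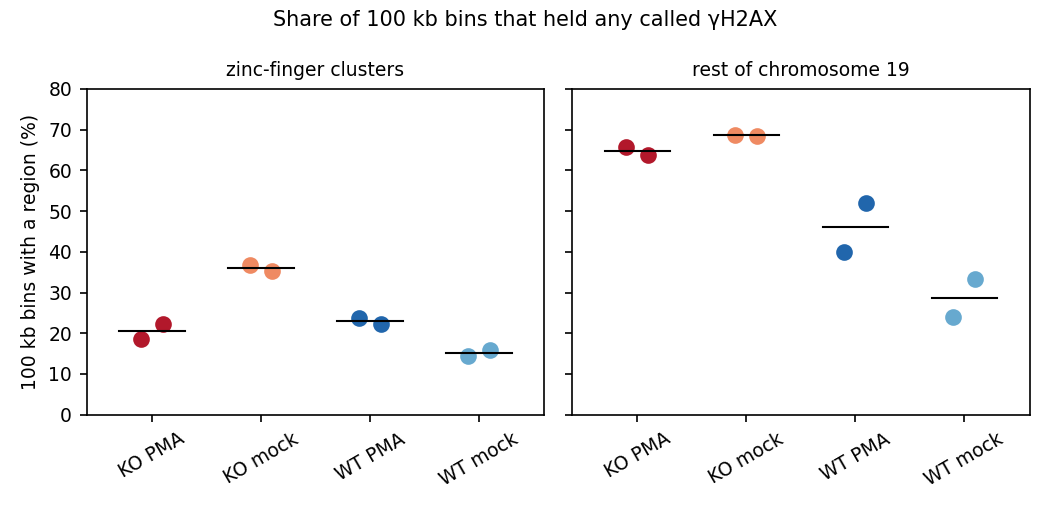
Share of 100 kb bins that held any called base pair (percent, vertical axis) in the zinc-finger clusters (left) and the rest of chromosome 19 (right), for the 2 libraries of each group (points; black line, mean). KO mock has the highest shares in the clusters, 36.7% and 35.3%, and every library has a lower share in the clusters than in the rest.

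The share of cluster regions that came back in the second library varied by group. In KO PMA 107 of the 237 regions of the first library overlapped a region of the second by at least 1 bp (45.1%), in KO mock 62 of 206 (30.1%), in WT PMA 14 of 108 (13.0%) and in WT mock 5 of 34 (14.7%). The same shares in the rest of the chromosome were 58.8% in KO PMA, 40.6% in KO mock, 19.2% in WT PMA and 19.2% in WT mock. No region of p12 or q13.31 was called in both libraries of any group. After merging overlapping regions of all libraries, the clusters held 640 loci, of which 411 were called in 1 library and none in all 8. The rest held 6965 loci, of which 6 were called in all 8 libraries. A set of 28 cluster loci was called in all 4 KO libraries and in no WT library, which is 4.38% of the cluster loci, beside 5.81% in the rest. All 28 lay in q13.4, with 21 of them between 54 and 56 Mb and 6 between 56 and 57 Mb, and their median length was 2021 bp.

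The p12 cluster, with ZNF91, ZNF43 and ZNF208 among its genes, was close to empty throughout. Its 4.8 Mb held 0 and 0.5 kb in KO PMA, 3.65 and 1 kb in KO mock, 9.08 and 3.83 kb in WT PMA, with 0 and 1 kb in WT mock. WT PMA was the highest group here, and KO PMA and WT mock overlapped at the bottom, an order unlike that of the rest of the chromosome. A single bin at 21.2 to 21.3 Mb gave 4.80 of the 9.08 kb in the first WT PMA library and 1.83 of the 3.83 kb in the second, and the other 6 libraries had none there. All 35 p12 loci were called in 1 library each.

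The q13.12 cluster was marked along its first 300 kb and hardly beyond. Those 300 kb held 11 and 7.87 kb in KO PMA, 13.2 and 15.2 kb in KO mock, 15.9 and 13 kb in WT PMA, with 0 and 1.5 kb in WT mock. The remaining 1.5 Mb held 0 kb in both KO PMA libraries, 1 and 0.5 kb in KO mock, 0 kb in both WT PMA libraries, with 0 and 0.5 kb in WT mock. The division at 300 kb was chosen after these values were seen. KO PMA was thus the lowest of the 3 KO or PMA groups at this place, while outside the same edge it was the highest, at 28.2 and 27 kb, beside 17.6 and 14.7 kb in KO mock, 1.74 and 5.59 kb in WT PMA, with 0 and 0.5 kb in WT mock. The region with the highest fold over input that both libraries of a group called was chr19:36575164-36575664 in KO mock, at 6.26-fold and 7.74-fold, and chr19:36554379-36555010 in WT PMA, at 5.93-fold and 18.62-fold. In KO PMA it was chr19:36522782-36523885, at 4.71-fold and 4.65-fold. The tags per 10 M of these regions were 6.73 and 8.33 in KO mock, 9.56 and 10.0 in WT PMA and 20.3 and 17.5 in KO PMA, so the higher folds went with fewer tags. These folds are the authors' own value for each region, and the coordinates are those of the first library.

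The q13.31 cluster, which includes ZNF45, ZNF155 and ZNF224, held 8 regions in all. Its covered length was 0 kb in both KO PMA libraries, 1.14 and 2.5 kb in KO mock, 0 kb in both WT PMA libraries, with 0.5 and 0 kb in WT mock. KO mock alone had a region in both of its libraries, and no 2 of the 8 regions overlapped.

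The q13.4 cluster carried most of the cluster coverage and followed the order of the rest of the chromosome. Its 6.6 Mb held 200 and 162 kb in KO PMA, 123 and 110 kb in KO mock, 38.8 and 43.8 kb in WT PMA, with 19.5 and 18.1 kb in WT mock, and the groups did not overlap. Per Mb this was 30.3 and 24.5 kb in KO PMA, 18.6 and 16.6 kb in KO mock, 5.88 and 6.63 kb in WT PMA, with 2.95 and 2.75 kb in WT mock. The rest of the chromosome had 150 and 126 kb per Mb in KO PMA, 37.9 and 42 kb in KO mock, 7.26 and 10 kb in WT PMA, with 2.39 and 3.93 kb in WT mock. In the WT mock libraries q13.4 lay between the 2 values of the rest, and in the KO PMA libraries it was covered at 0.202 and 0.196 of the density of the rest.

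**Figure D4:**
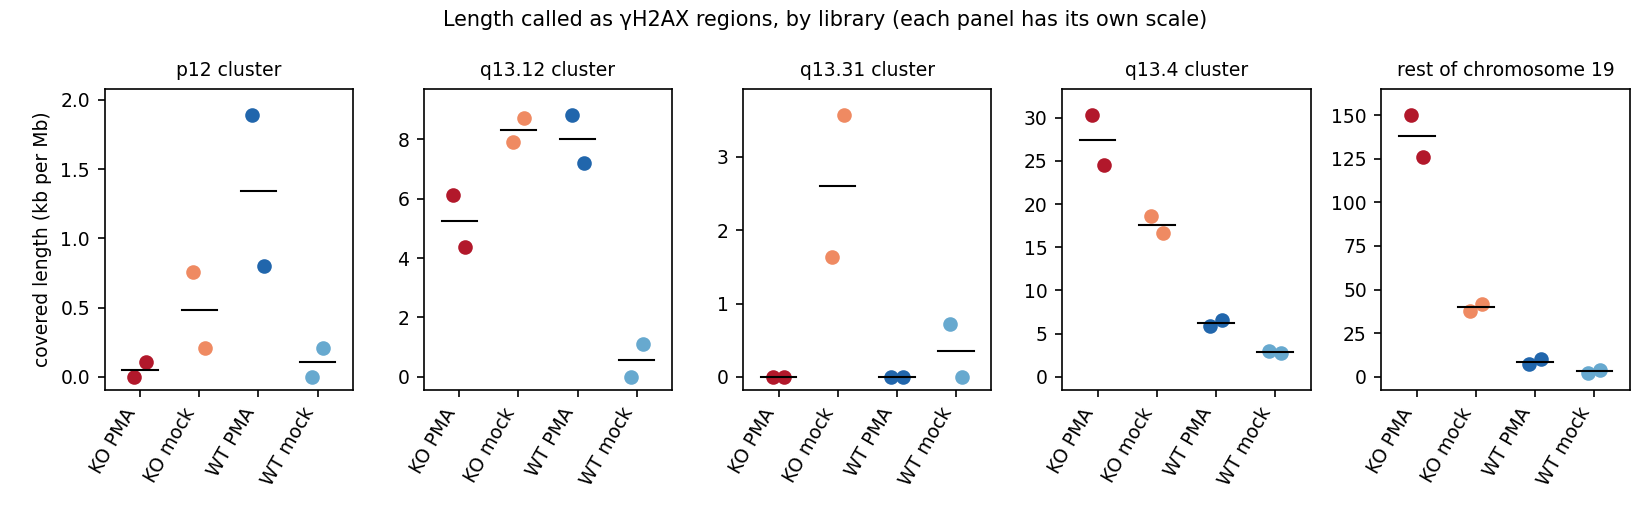
Covered length (kb per Mb, vertical axis) in each zinc-finger cluster and in the rest of chromosome 19, for the 2 libraries of each group (points; black line, mean), with a separate scale for each panel. In q13.4 and in the rest KO PMA is the highest group, while in p12 WT PMA is the highest, at 1.89 and 0.797 kb per Mb.

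Within q13.4 the coverage of KO PMA was concentrated in a block from 54.6 to 56.2 Mb and in the last 100 kb. The block overlaps the fixed stretch from 54 to 56 Mb, but none of its regions was assigned to a gene or gene family. The block was set after the values were seen, from the first to the last bin before the final 100 kb with a KO PMA mean of at least 5 kb, so its large share in KO PMA follows in part from that choice. It is not filled throughout: from 55.0 to 55.5 Mb no 100 kb bin held more than 0.5 kb in either KO PMA library. It held 85.9% and 86.2% of the q13.4 coverage in KO PMA, 51.6% and 59.1% in KO mock, 33.1% and 42.3% in WT PMA and 27.2% and 13.8% in WT mock. In kb this was 172 and 139 in KO PMA, 63.4 and 64.8 in KO mock, 12.8 and 18.5 in WT PMA and 5.3 and 2.5 in WT mock. Outside the block and the last 100 kb, KO PMA had 15.7 and 15.4 kb, KO mock 43.8 and 32.7 kb, WT PMA 18.4 and 16.7 kb and WT mock 7.95 and 8.3 kb. The low remainder of KO PMA is likewise set by the choice of the block. With the fixed stretch from 54 to 56 Mb left out instead, q13.4 held 56 and 45.5 kb in KO PMA, 72.6 and 64.1 kb in KO mock, 30 and 31 kb in WT PMA, with 14.2 and 16.1 kb in WT mock, without overlap between the groups and with KO mock the highest.

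The last 100 kb, from 58.8 to 58.9 Mb and close to the chromosome end, was covered in all 4 groups. It held 12.4 and 6.99 kb in KO PMA, 15.8 and 12.2 kb in KO mock, 7.61 and 8.53 kb in WT PMA, with 6.23 and 7.34 kb in WT mock. In WT mock this single bin made up 32% and 40.5% of the q13.4 coverage. Next to the interval, the 300 kb beyond its end held 54.9 and 37.4 kb in KO PMA, 29.7 and 24.2 kb in KO mock, 29.8 and 32.7 kb in WT PMA, with 26.6 and 32.2 kb in WT mock, so the chromosome end was covered in every group.

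**Figure D5:**
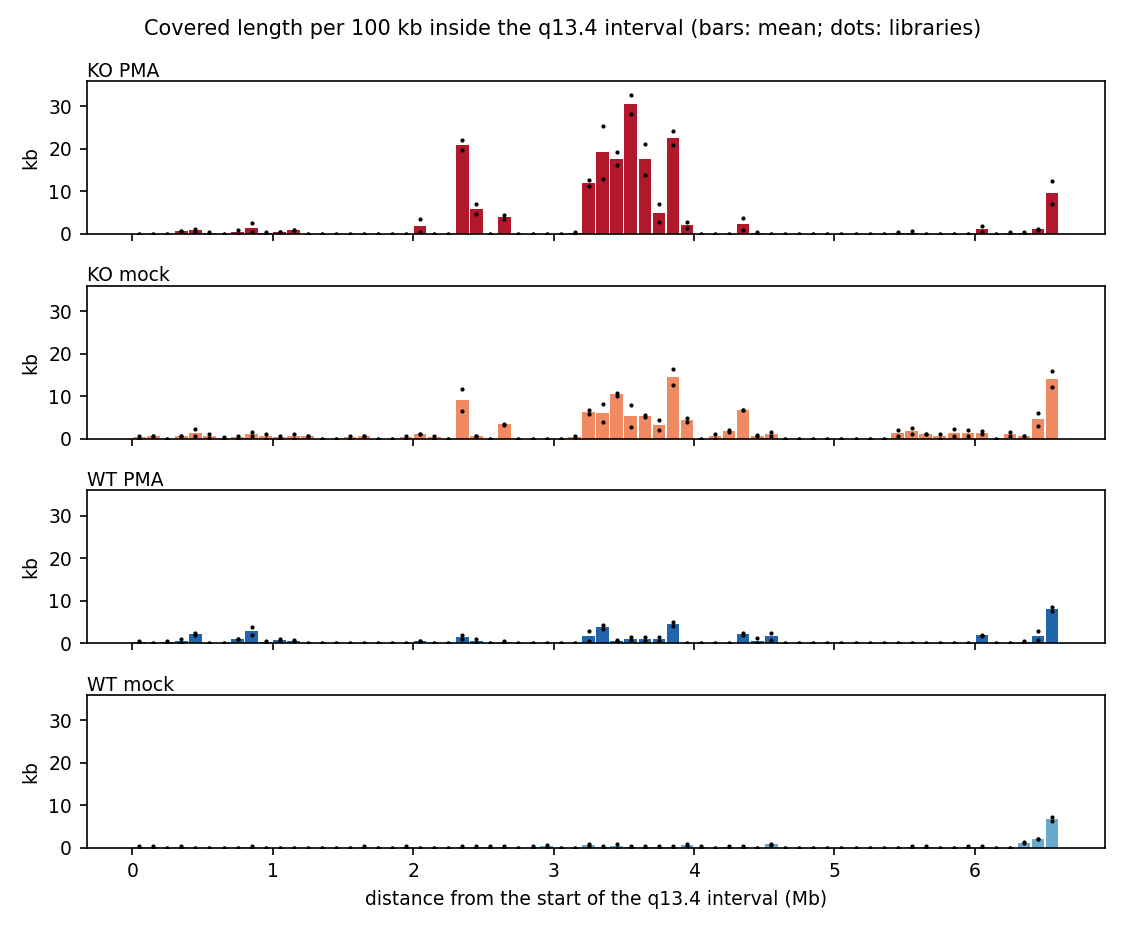
Covered length per 100 kb (kb, vertical axis) by distance from the start of the q13.4 interval (Mb, horizontal axis), with 1 row per group (bars, mean of 2 libraries; dots, single libraries). The tall bars of KO PMA, up to 32.8 and 28.2 kb, stand in the middle of the interval, and the last bin is covered in all 4 groups.

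The regions of the clusters were then set beside those of the rest by fold and length. The median fold over input was 4.07 and 4.26 in the KO PMA clusters and 3.90 and 4.13 in the rest. Regions of at least 1000 bp made up 24.1% and 24.7% of cluster regions in KO PMA, an average of 13.9% in KO mock, 3.70% and 3.88% in WT PMA and 5.88% and 0% in WT mock. In the rest the shares were 40.8% and 36.1% in KO PMA, 16.1% and 19% in KO mock, 6.28% and 5.32% in WT PMA and 5.65% and 4.08% in WT mock. The longest cluster region of KO PMA was 4405 bp in the first library and 3456 bp in the second, beside 18957 and 17254 bp in the rest. In q13.4, the region with the highest fold called in both libraries was chr19:55706923-55707423 in KO PMA, at 14.25-fold and 12.79-fold, and chr19:54378966-54379466 in KO mock, at 31.3-fold and 26.21-fold. It was chr19:52709695-52710195 in WT PMA, at 24.62-fold and 13.69-fold, and chr19:58727132-58727632 in WT mock, at 11.65-fold and 6.76-fold. Their tags per 10 M were 7.67 and 6.88 in KO PMA, 8.42 and 7.05 in KO mock, 6.62 and 14.7 in WT PMA and 6.26 and 7.27 in WT mock. Apart from WT PMA replicate 2, these lay near the 5.89 to 7.69 that a window needed, so the high folds reflect few input tags.

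Each cluster was then tested between groups with limma on the log2 covered length per Mb, in 1 fit over 27 features (the 4 clusters, the rest of chromosome 19 and the other chromosomes), and each 100 kb bin with limma on log2(covered bp + 1000). Differences of both kinds are on a log2 scale that understates changes of little-covered stretches. Of the 139 cluster bins, 51 were covered in at least 2 libraries and entered the test, with 6 in p12, 3 in q13.12, 2 in q13.31 and 40 in q13.4. Groups are shared between the comparisons, which are therefore not independent of each other. With regions below 1000 bp left out, limma called q13.12 and q13.4 in KO mock relative to WT mock, q13.4 in KO PMA relative to WT PMA, q13.12 in WT PMA relative to WT mock, and no cluster in the other comparisons.

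Among mock-treated cells, covered length was higher in KO than in WT in all 4 clusters. The log2 differences were below that of the rest of the chromosome, a gap for which the exact permutation test of the ratios gave p = 0.333 in each cluster, the smallest it can give. In p12, q13.12 and q13.31, 1 WT mock library was listed at 0 kb, so the separation of the ratios behind that p rests on the added 1000 bp. In KO mock relative to WT mock, limma called 4 of 4 clusters higher, where 77.8% of all 27 features were called in either direction. Of all features, 19 were called higher and 2 lower. The log2 difference was 2.57 (SE 0.21, adjusted p = 1.58e-16) in q13.4 and 3.20 (SE 0.29, adjusted p = 5.94e-15) in q13.12, beside 3.69 (SE 0.19) in the rest. In q13.31 it was 1.16 (SE 0.29, limma adjusted p = 0.000352), and without KO mock replicate 2 it was 0.81 with an adjusted p of 0.0729. In p12 it was 1.11 (SE 0.37, limma adjusted p = 0.00669), but the libraries overlapped. Leaving out 1 of 4 libraries ended the p12 call in turn: KO mock replicate 1 (0.50), WT mock replicate 1 (0.61), and KO PMA replicates 1 and 2 (1.11 each). With the same number of regions taken from each library, the p12 difference was -0.21 and that of q13.31 was 0.00. As shares of the library's covered length, neither cluster was called, at 0.15 in p12 and 0.20 in q13.31. The p12 call was also lost with 1 tag threshold (0.95) and when regions below 6-fold were left out (0.50).

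Of the 51 cluster bins tested, limma called 15 higher (29.4%) and 0 lower in KO mock relative to WT mock, beside 17.2% higher and 3.61% lower over all 9552 bins and 64.3% higher in the rest of chromosome 19. At an unadjusted p under 0.05 there were 24 cluster bins in either direction. The median log2 difference was 0.77 in the cluster bins, 1.98 in the rest and 0.29 over all bins. The largest was the bin at 56.1 to 56.2 Mb, with 12.5 and 16.4 kb in KO mock, against 0 and 0.5 kb in WT mock (3.65, SE 0.26, limma adjusted p = 0.000970). It was followed by the bin at 36.6 to 36.7 Mb in q13.12, with 6.08 and 8.47 kb in KO mock and 0 kb in both WT mock libraries (3.03, SE 0.46, limma adjusted p = 0.0105). That call was lost without any 1 of the 4 mock libraries (limma adjusted p from 0.0506 to 0.0682), and with at least 6-fold over input both bins lost theirs (1.25 at 56.1 to 56.2 Mb, 0.37 at 36.6 to 36.7 Mb). In q13.31 the bin at 44.5 to 44.6 Mb was called on 1.14 and 0.5 kb in KO mock and none in WT mock, and the call was lost without either WT mock or either KO PMA replicate (0.84 each). That bin was covered in KO mock alone and entered the test through that group, so its direction was set by the filter on bins. The count of 15 was 4 without KO mock replicate 1, 6 without KO mock replicate 2, 9 without WT mock replicate 1 and 8 without WT mock replicate 2.

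After PMA, the clusters split: q13.4 was higher in KO and p12 was lower. In KO PMA relative to WT PMA, limma called 2 of 4 clusters, where 74.1% of all features were called in either direction, 12 higher and 8 lower. The q13.4 difference was 2.10 (SE 0.21, limma adjusted p = 5.81e-13), beside 4.01 (SE 0.19) in the rest of the chromosome. The p12 difference was -2.51 (SE 0.37, limma adjusted p = 2.93e-08), with 0 and 0.5 kb in KO PMA and 9.08 and 3.83 kb in WT PMA. This p12 call was lost when 1 tag threshold was used for all libraries (-0.50, limma adjusted p = 0.485) and with equal numbers of regions (0.00). In q13.12 the difference was -0.57 (SE 0.29, limma adjusted p = 0.0691), with no overlap between 11 and 7.87 kb in KO PMA and 15.9 and 13 kb in WT PMA. It was past the threshold with at least 6-fold over input (-0.57, limma adjusted p = 0.0154), without WT PMA replicate 2 (-0.71) and without either WT mock replicate (-0.57), and it was 0.11 with 1 tag threshold. In q13.31 both groups were listed at 0.

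Among the 51 cluster bins, limma called 10 higher and 1 lower in KO PMA relative to WT PMA, beside 15.9% higher and 21.9% lower over all bins. In the rest of chromosome 19, 72.3% of the bins were higher. The median log2 difference was 0 in the cluster bins, 2.81 in the rest and -0.21 over all bins. All 10 higher bins lay in q13.4, and the 3 with the largest change were neighbours in the block described above. The bin at 55.8 to 55.9 Mb had 32.8 and 28.2 kb in KO PMA, against 0.639 and 1.5 kb in WT PMA (3.96, SE 0.49, limma adjusted p = 0.00376). The bin at 55.7 to 55.8 Mb had 19.3 and 16.2 kb in KO PMA, against 0.5 and 0.642 kb in WT PMA (3.58, SE 0.35, limma adjusted p = 0.00182). With at least 6-fold over input neither was called (1.27 and 1.63). The lower bin was that at 21.2 to 21.3 Mb in p12, at -2.02 (SE 0.34, limma adjusted p = 0.00905). This bin was covered in WT PMA alone and entered the test through that group, so its direction was set by the filter on bins. It was not called without KO PMA replicate 1 (-2.02, limma adjusted p = 0.0514), and without either WT PMA replicate it was covered in 1 library and not tested.

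Among wild-type cells, covered length was higher after PMA in p12, q13.12 and q13.4. In WT PMA relative to WT mock, limma called 3 of 4 clusters higher, where 96.3% of all features were called, 26 higher and 0 lower. The difference was 3.15 (SE 0.29, limma adjusted p = 5.74e-14) in q13.12 and 2.30 (SE 0.37, limma adjusted p = 1.02e-07) in p12, beside 1.47 (SE 0.19) in the rest. The exact permutation test of the ratio to the rest gave p = 0.333 in q13.12 and p = 0.667 in p12. The q13.4 difference was 1.09 (SE 0.21, limma adjusted p = 3.52e-06). As a share of the library's covered length, q13.4 was lower in WT PMA instead, at -0.56 (limma adjusted p = 0.0427). With equal numbers of regions no cluster was called, and the values were -0.50 in p12, 1.27 in q13.12 and -0.92 in q13.4. With 1 tag threshold for all libraries the p12 call was lost as well (0.79, limma adjusted p = 0.197), as it was for the share of the library (0.65, limma adjusted p = 0.365). The q13.31 difference was -0.29 (SE 0.29, limma adjusted p = 0.319).

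Of the cluster bins, limma called 6 higher and 0 lower in WT PMA relative to WT mock, beside 32.1% higher and 2.31% lower over all bins, so the share of higher bins in the clusters, 11.8%, was below that of the genome. At an unadjusted p under 0.05 there were 15 in either direction. The median log2 difference was 0.22 in the cluster bins, 0.37 in the rest of the chromosome and 0.66 over all bins. With each library centred on its own median, 4 bins were called higher and 8 lower. The called bins were those at 36.5 to 36.6 Mb (9.86 and 8.95 kb in WT PMA, against 0 and 1.5 kb in WT mock) and 36.6 to 36.7 Mb (5.39 and 3.51 kb in WT PMA, against none in WT mock) in q13.12, that at 21.2 to 21.3 Mb in p12 and 3 in q13.4. The p12 bin was covered in WT PMA alone, so the filter on bins set its direction, and its call rests on the same coverage as in KO PMA relative to WT PMA. The call at 36.5 to 36.6 Mb was lost without WT PMA replicate 1 (2.65, limma adjusted p = 0.0542), and that at 36.6 to 36.7 Mb without WT PMA replicate 1 or either WT mock replicate (limma adjusted p from 0.0599 to 0.0798). That at 21.2 to 21.3 Mb was lost without WT mock replicate 2 (2.02, limma adjusted p = 0.0568) and not tested without either WT PMA replicate. Leaving out WT PMA replicate 1 or WT mock replicate 2 gave 2 higher bins, and leaving out WT PMA replicate 2 or WT mock replicate 1 gave 3.

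Among knock-out cells, covered length after PMA was lower in p12, q13.12 and q13.31 and higher in q13.4. In KO PMA relative to KO mock, limma called 4 of 4 clusters, where 81.5% of all 27 features were called in either direction. Of all features, 19 were called higher and 3 lower, and those 3 were p12, q13.12 and q13.31. The rest of the chromosome was 1.78 higher (SE 0.19). The difference was -1.45 (SE 0.29, limma adjusted p = 1.28e-05) in q13.31, -1.32 (SE 0.37, limma adjusted p = 0.00128) in p12 and -0.63 (SE 0.29, limma adjusted p = 0.0432) in q13.12. The q13.12 call was lost without any 1 of the 4 KO libraries, with values from -0.85 to -0.41, and the p12 call without KO PMA replicate 1 (-1.02) or KO mock replicate 1 (-0.71). In q13.4 the difference was 0.62 (SE 0.21, limma adjusted p = 0.00636). It rested on the stretch from 54 to 56 Mb: without that stretch the q13.4 difference was -0.43 (limma adjusted p = 0.0681). As a share of the library it was -0.53 (limma adjusted p = 0.0432), and the call was lost without KO PMA replicate 1 (0.47) or KO mock replicate 2 (0.54). With at least 6-fold over input the calls of q13.12 (-0.29) and q13.4 (0.15) were lost, with 1 tag threshold those of p12 (-0.66) and q13.4 (0.66), and with equal numbers of regions those of p12 (-0.29), q13.31 (0.00) and q13.4 (0.29).

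Bin by bin, limma called 7 of the 51 cluster bins (13.7%) in KO PMA relative to KO mock, 3 higher and 4 lower, beside 18.4% in either direction and 5.34% lower over all bins, of which 1252 of 9552 were higher. In the rest of the chromosome, 42.4% of the bins were higher and 3.05% lower. The median log2 difference was -0.29 in the cluster bins, 1.31 in the rest and 0.21 over all bins. The 3 higher bins stood in the block of q13.4, and the bin at 55.8 to 55.9 Mb had 32.8 and 28.2 kb in KO PMA, against 2.64 and 7.86 kb in KO mock (2.47, SE 0.49, limma adjusted p = 0.0266). That call was lost without either KO PMA replicate or KO mock replicate 1 (limma adjusted p from 0.0819 to 0.132). The 4 lower bins were nearly empty in both groups: the one at 56.5 to 56.6 Mb had 0 kb in KO PMA and 1.44 and 2.06 kb in KO mock, and its call was lost without any 1 of the 4 KO libraries (limma adjusted p from 0.0504 to 0.0835). Another, at 53.5 to 53.6 Mb, was called on 1 region of 0.5 kb in each KO mock library. Leaving out 1 library moved the higher count to 0 without KO PMA replicate 1 and to 1 without each of the other KO libraries. The lower count moved to 2 without KO PMA replicate 1, 1 without KO PMA replicate 2 and 0 without either KO mock replicate.

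The response to PMA itself was compared between genotypes as an interaction. Limma called 3 of 4 clusters lower for the PMA response in KO minus that in WT. Of all features 44.4% were called, 0 higher and 12 lower. The difference of the responses was -3.77 (SE 0.41, limma adjusted p = 2.28e-11) in q13.12, -3.62 (SE 0.53, limma adjusted p = 7.13e-08) in p12 and -1.16 (SE 0.41, limma adjusted p = 0.0199) in q13.31, beside 0.32 (SE 0.27, limma adjusted p = 0.299) in the rest of the chromosome. Since q13.31 was listed at 0 in both KO PMA and WT PMA, its value is the difference of the mock groups, 1.16, with the sign turned, and adds no separate measurement of a PMA response. In q13.4 it was -0.47 (SE 0.30, limma adjusted p = 0.161), -0.75 (limma adjusted p = 0.00731) with at least 6-fold over input, and -1.39 (limma adjusted p = 0.000358) without the stretch from 54 to 56 Mb. The q13.31 call was lost without KO PMA replicate 1 or 2 (-1.16 each), KO mock replicate 2 (-0.81) or WT mock replicate 2 (-0.87). With equal numbers of regions no cluster was called, the q13.12 value being -3.85 (limma adjusted p = 0.0529) and the p12 value 0.21. The p12 call was also lost with 1 tag threshold (-1.45, limma adjusted p = 0.153), and the q13.31 call for shares of the library (-0.66, limma adjusted p = 0.437).

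For this interaction limma called 0 cluster bins higher and 5 lower (9.80%), beside 3.79% higher and 12.7% lower over all bins, and 12 cluster bins had an unadjusted p under 0.05 in either direction. The median was -0.58 in the cluster bins, 0.73 in the rest of the chromosome and -0.54 over all bins. The strongest was the bin at 36.6 to 36.7 Mb in q13.12, with 2.63 and 0.5 kb in KO PMA, 6.08 and 8.47 kb in KO mock, 5.39 and 3.51 kb in WT PMA and none in WT mock (-4.23, SE 0.66, limma adjusted p = 0.0158). That call was lost without either KO mock replicate, either WT mock replicate or WT PMA replicate 1 (limma adjusted p from 0.0550 to 0.0687). The count of 5 was 3 without KO PMA replicate 1, 2 without KO PMA replicate 2 or WT PMA replicate 2, 1 without KO mock replicate 2 or WT PMA replicate 1, and 0 without KO mock replicate 1.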

How the data were processed

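The samples were 8 γH2AX ChIP-seq libraries of K562 cells and 1 input library, of which only the 8 region lists were analysed. The submitters' processing notes name CASAVA 1.4, BWA, HOMER and the build hg19. Regions were called by the authors with HOMER, library by library and always against the input of WT mock cells, by joining windows of 500 bp with at least 2-fold enrichment, per the file headers. The deposited signal gives the tags of a region per 10 M tags of its library, beside the tags of the input there. Unscaled tag counts, scores and p-values in the deposited lists are HOMER's own values per region, as is the deposited fold, the ratio of tags to input tags, and coordinates are printed as the files give them.

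The members, the lists and the tests were chosen with earlier results of these data known. Covered length is the merged length of called regions, given to an interval by midpoint. The 9552 bins of 100 kb covered in at least 2 libraries, and 27 features, were compared by limma 3.58.1 (R 4.3.3; trend), all 8 libraries in 1 fit of 4 groups, an offset of 1000 bp and a Benjamini-Hochberg threshold of 0.05, two-sided. Ratios to the rest of the chromosome were compared by exact permutation tests in Python 3.11.15. The fits were tested on simulated data. Bins named in the text are, in each cluster and comparison, up to 3 past the threshold per direction, largest changes first, and regions named are those called in both libraries of a group with the highest value of the lower fold. Alternatives changed the filters on regions, bin size, offset, scaling, the rest used and the libraries.

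Replicate numbers were not taken to pair the libraries, since the labels do not say that a number marks a shared culture or day. Deviations of same-numbered libraries correlated at -0.06 to 0.16 over bins, which cannot exclude such a pairing.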

Additional observations from a re-analysis of the deposited data

Results flagged for a closer look

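The response to PMA differed between genotypes in limma's interaction term, PMA response in KO minus that in WT, for 3 clusters: p12 (-3.62), q13.12 (-3.77) and q13.31 (-1.16), where 44.4% of all 27 features were called. In q13.31 both PMA groups were listed at 0, so that the value is the mock difference with its sign turned. The term was also called for 5 of 51 cluster bins of 100 kb (9.80%), beside 12.7% of all bins called lower. They were those from 36.6 to 36.7 Mb in q13.12 (-4.23), from 56.6 to 56.7 Mb (-2.72), from 56.1 to 56.2 Mb (-1.54) and from 53.5 to 53.6 Mb (-0.58) in q13.4, and from 21.2 to 21.3 Mb in p12 (-2.02). The bin from 56.6 to 56.7 Mb had 3.75 and 1 kb in KO PMA, 6.74 and 6.68 kb in KO mock, 2 and 2.49 kb in WT PMA, with 0 and 0.5 kb in WT mock. Over the alternatives that gave a value, the call held in 10 of 17 at 36.6 to 36.7 Mb, 3 of 17 at 56.6 to 56.7 Mb, 0 of 17 at 56.1 to 56.2 Mb, 11 of 12 at 53.5 to 53.6 Mb and 1 of 12 at 21.2 to 21.3 Mb. Under the replicate block it was lost at 56.6 to 56.7 Mb (limma adjusted p = 0.0754), 56.1 to 56.2 Mb (0.0610) and 21.2 to 21.3 Mb (0.0662). The bin from 53.5 to 53.6 Mb held 1 region of 0.5 kb in each KO mock library and nothing elsewhere. It entered the test through that group alone, and its value repeats the difference of KO PMA minus KO mock. Without either KO mock library it was not tested, so its 11 of 12 is no measure of a stable PMA response. The bin from 21.2 to 21.3 Mb was covered in WT PMA alone, and its value is the WT PMA minus WT mock difference with the sign turned. Groups of 2 libraries are too small for a check of single outlying libraries.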

How the results depend on the processing

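The genotype effect on the ratio of the clusters to the rest of chromosome 19 stayed negative in all 16 alternatives, from -2.58 to -1.13 for the clusters together, and 548 of 560 alternative ratio values kept their direction. These counts include the replicate block, which leaves a difference of mean ratios as it is and so repeats the main value for every ratio. The exact permutation tests of these ratios cannot reach 0.05, so their p-values say nothing about stability. Counts of called bins were within 1.5 times the main count in 127 of 190 cases, and single clusters kept their direction and side of the threshold in 250 of 320. The bins named by the rule kept theirs in 287 of 440, and 152 lost the call. The cause of each change was not tested.

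Counts are given as higher and lower cluster bins. In KO mock minus WT mock, the higher count was 4 with at least 6-fold over input, 6 with regions of at least 1000 bp and 9 with equal numbers of regions. In KO PMA minus WT PMA, it was 18 with 50 kb bins and 1 with at least 6-fold, and the lower count was 2 with 200 kb bins, 3 with 50 kb bins, 2 with an offset of 500 bp, and 0 with regions of at least 1000 bp, 1 tag threshold or equal numbers. In WT PMA minus WT mock, the higher count was 11 with 200 kb bins, 10 with 50 kb bins, 1 with at least 6-fold, 1 with regions of at least 1000 bp, 2 with 1 tag threshold and 0 with equal numbers, and the lower count was 8 with libraries centred and 2 with equal numbers. In KO PMA minus KO mock, the higher count was 7 with 50 kb bins, 0 with at least 6-fold, 1 with an offset of 500 bp, 5 with one of 5000 bp and 6 with regions of at least 1000 bp, and the lower count was 2 with 200 kb bins, 2 with regions of at least 1000 bp and 0 with equal numbers. For the interaction, the higher count was 1 with 50 kb bins, 2 with libraries centred, 2 with an offset of 5000 bp, 3 with regions of at least 1000 bp and 1 with 1 tag threshold, and the lower count was 1 with libraries centred, 2 without the filter on bins, 3 with an offset of 500 bp, 2 with regions of at least 1000 bp and 0 with equal numbers. The replicate block gave 2 lower bins for the interaction, and moved no other count by over 1.5 times; under it the p12 call in mock cells (1.11, limma adjusted p = 0.0505) and the q13.12 call of KO PMA minus KO mock (-0.63, limma adjusted p = 0.114) were lost.

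The number of clusters called was 2 in KO mock minus WT mock with regions of at least 1000 bp, equal numbers or shares of the library. It was 1 in KO PMA minus WT PMA with regions of at least 1000 bp, 1 tag threshold or equal numbers, and 1 and 0 in WT PMA minus WT mock with regions of at least 1000 bp and with equal numbers. In KO PMA minus KO mock it was 2 with at least 6-fold, 0 with regions of at least 1000 bp, 2 with 1 tag threshold and 1 with equal numbers, and for the interaction 0 with regions of at least 1000 bp or equal numbers. Directions turned in p12 with equal numbers (-0.21 for KO mock minus WT mock, -0.50 for WT PMA minus WT mock, 0.21 for the interaction), in q13.12 with 1 tag threshold (0.11 for KO PMA minus WT PMA), and in q13.4 for WT PMA minus WT mock (-0.92 with equal numbers, -0.56 as a share), KO PMA minus KO mock (-0.43 without 54 to 56 Mb, -0.53 as a share) and the interaction (0.12 with regions of at least 1000 bp, 1.20 with equal numbers, 0.03 as a share). The bin from 53.5 to 53.6 Mb turned to 0.14 for the interaction with libraries centred. Among ratios to the rest, q13.12 in KO mock minus WT mock was 0.13 against the long arm. In WT PMA minus WT mock the clusters together gave -0.33 with at least 6-fold and -0.17 with equal numbers, p12 gave -0.02 with at least 6-fold, -1.31 with regions of at least 1000 bp, -0.70 with 1 tag threshold and -0.07 with equal numbers, q13.12 gave -0.33 with at least 6-fold and q13.31 gave 0.43 with equal numbers. Reproducible regions in WT mock were 2 with an overlap of at least 50% of the shorter region.

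Leaving out 1 library gave 4 to 15 higher bins in KO mock minus WT mock, 0 to 1 lower in KO PMA minus WT PMA, 2 to 8 higher and 0 to 2 lower in WT PMA minus WT mock, 0 to 4 higher and 0 to 5 lower in KO PMA minus KO mock, and 0 to 4 lower for the interaction. It gave 1 to 4 clusters called in KO PMA minus KO mock, and ratios of -0.23 to 0.40 for the clusters together and -0.78 to 0.03 for q13.4 in WT PMA minus WT mock. A group left with 1 library was assumed to vary like the others.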
